A study of Homo sapiens with 4 samples.

Results

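The genes described here are 10 ATPases of human chromatin remodelling complexes outside the SWI/SNF family: CHD3, CHD4, CHD7 and CHD8 of the CHD family, SMARCA1 and SMARCA5 of the ISWI family, INO80, SRCAP and EP400 of the INO80 family, and HELLS. They were picked by symbol, as ATPases of these families, from the 61228 features counted. The choice was made with earlier results of these data known and does not cover every member of these families. All 10 passed the filter on low counts that left 19159 genes for testing. The data are RNA-seq read counts from H1792, an established cell line of human lung cancer whose genotype the labels give as WT. The control group of 2 libraries came from cells kept for 96 h with the solvent DMSO, and the treated group of 2 libraries from cells kept for 96 h with ACBI1 at a dose written in the labels as 1 mM. ACBI1 is a PROTAC that brings SMARCA2, SMARCA4 and PBRM1, subunits of SWI/SNF complexes, to the VHL ubiquitin ligase, so that these proteins are degraded. Proteins were not analysed here. The comparison of these genes asks how transcripts of the remodellers that ACBI1 is not directed at stood in the cells that received it.

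Chromatin remodellers use the energy of ATP to slide, evict, space or exchange the histones of nucleosomes. All belong to the SNF2 type of helicase-like ATPases, and the families differ in what surrounds the motor. CHD proteins carry chromodomains, and CHD3 and CHD4 join histone deacetylases in the NuRD complex. ISWI motors space nucleosomes evenly. INO80, SRCAP and EP400 have a split motor domain and work in large complexes that share subunits, and SRCAP and EP400 place the histone variant H2A.Z. HELLS, also called LSH, is known for its part in keeping DNA methylated in dividing cells, and acts with CDCA7.

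Gene counts summed to between 64281850 and 86010100 per library. Transcript levels below are in CPM, counts per gene relative to the library size after TMM scaling, log2 changes are ACBI1 minus DMSO, and calls are those of edgeR's quasi-likelihood test over all 19159 genes with a Benjamini-Hochberg adjusted p under 0.05. The labels do not say whether the libraries of a group came from separate cultures, so p-values measure the spread between these libraries only, which may be technical. In bulk RNA, fewer cells of a type and less RNA per cell cannot be told apart. Of 9 epithelial and lung markers, 6 could be tested and 4 fell with ACBI1 (KRT7, KRT8, KRT18 and KRT19), while EPCAM was not called, at 5.38 and 2.78 CPM in DMSO and 15.6 and 4.84 CPM in ACBI1. The 9 summed to 982 and 1035 CPM in DMSO and to 323 and 202 CPM in ACBI1, and the lung marker NKX2-1 had a count of 0 in all 4. Of 7 markers of other cell types, 3 could be tested and 1 fell, PECAM1, and their summed level was 3371 and 3419 CPM in DMSO against 3019 and 3052 CPM in ACBI1. Markers of leukocytes (PTPRC, CD3E, CD68) and the endothelial CDH5 had at most 9 counts in any library. The mesenchymal VIM was at 2856 CPM in DMSO and 2899 CPM in ACBI1, and COL1A1 was at 324 and 693 CPM in DMSO and 62.3 and 210.2 CPM in ACBI1. The endothelial PECAM1 was at 12.2 and 48.1 CPM in DMSO and at 0.0112 and 0.0458 CPM in ACBI1. The part of these marker differences in the results below was not tested.

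With ACBI1, transcripts of HELLS, INO80 and CHD7 rose, and none of the 10 ATPases was called lower. Of all genes tested, 17.4% were called in either direction, 6.75% higher and 10.6% lower. The 3 called ATPases therefore stand beside a background of 1294 genes called higher and 2037 called lower, and the 10 were not tested as a group. Scaling by library size alone gave 1755 higher and 1866 lower, and it moved the median log2 change of all genes from 0.01 to 0.09. The median log2 change of the 10 ATPases was 0.41, with a range from -0.37 for CHD4 to 1.64 for HELLS, against 0.01 over all tested genes. It depends on the choice of the 10: 6 other CHD ATPases had a median of 0.08. Among those 6, CHD6 was called lower (edgeR adjusted p 0.0433). The changes of CHD4 and SRCAP probably rest mainly on exons that no other gene shares, as given below. At an unadjusted p under 0.05, 5 of the 10 were higher and 0 lower, against 15.4% (2941) and 18.5% (3549) of all tested genes. The 2 groups of libraries did not overlap for 7 of the 10, all but CHD8, SMARCA1 and SRCAP, while 63.2% of all tested genes had groups that did not overlap.

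**Figure D1:**
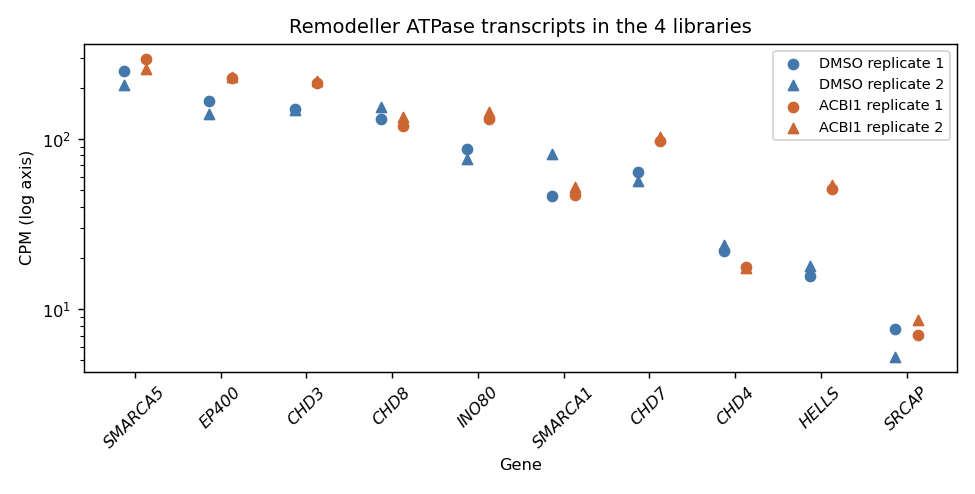
Level of each ATPase transcript in each library, in CPM on a log axis, with 2 DMSO and 2 ACBI1 libraries per gene. HELLS stood at 15.6 and 18.0 CPM in DMSO and at 50.8 and 53.7 CPM in ACBI1, while CHD8, SMARCA1 and SRCAP had overlapping groups.

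HELLS had the largest change of the 10. Its gene lies at chr10:94501434-94613905 on the plus strand (GRCh38, GENCODE 29). The 250 bases before the RefSeq start site of HELLS, which lies within that longer gene model, are printed below. Those of UHRF1 and CDCA7L, from the list of HELLS partner genes, and of INO80 are printed with them. These were the ATPase and the called partner genes with the largest rises, and the other called ATPase with a window available. Sequences are from RefSeq, build GRCh38.p14, on the strand of each gene, 5′ to 3′ and ending at the base before the start site. Capitals mark matches to 4 spellings of the E2F motif (TTTCCCGC, TTTGGCGC, TTTCGCGC and TTTGCCGC, searched on both strands). The windows lie at chr10:94545538-94545787 on the plus strand for HELLS, chr19:4909251-4909500 on the plus strand for UHRF1, chr7:21945900-21946149 on the minus strand for CDCA7L and chr15:41116281-41116530 on the minus strand for INO80.
HELLS: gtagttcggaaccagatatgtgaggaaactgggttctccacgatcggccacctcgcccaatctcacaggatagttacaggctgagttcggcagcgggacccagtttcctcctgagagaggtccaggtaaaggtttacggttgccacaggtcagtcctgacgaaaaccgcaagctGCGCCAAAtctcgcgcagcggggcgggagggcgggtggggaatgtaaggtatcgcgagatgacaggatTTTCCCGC
UHRF1: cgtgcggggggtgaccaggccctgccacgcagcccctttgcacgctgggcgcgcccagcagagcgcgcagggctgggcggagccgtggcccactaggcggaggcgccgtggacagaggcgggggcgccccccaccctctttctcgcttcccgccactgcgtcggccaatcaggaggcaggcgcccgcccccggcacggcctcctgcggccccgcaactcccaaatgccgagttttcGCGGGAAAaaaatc
CDCA7L: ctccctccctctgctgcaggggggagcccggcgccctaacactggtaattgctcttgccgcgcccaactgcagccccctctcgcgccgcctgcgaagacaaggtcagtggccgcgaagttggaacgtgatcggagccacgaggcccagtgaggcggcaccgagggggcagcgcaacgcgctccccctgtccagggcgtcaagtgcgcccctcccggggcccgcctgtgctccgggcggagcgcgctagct
INO80: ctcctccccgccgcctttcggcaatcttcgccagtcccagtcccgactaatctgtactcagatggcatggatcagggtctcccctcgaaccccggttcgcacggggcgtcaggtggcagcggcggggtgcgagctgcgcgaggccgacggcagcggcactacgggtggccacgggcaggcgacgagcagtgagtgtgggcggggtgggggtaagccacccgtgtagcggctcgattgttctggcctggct
Within the longer window from 250 bases before to 50 bases after the start site, an E2F match occurred in 1164 of 35116 RefSeq windows (3.31%). HELLS had matches whose first bases lie at -76 and -8 from the start site. Of the 9 ATPases with a window, HELLS was the 1 with a match. Among the 5 genes of the HELLS partner list, 3 had a match, UHRF1 at -14, CDCA7 at -65 and DNMT1 at -2. In the list of other SNF2 type ATPases, 1 of 12 genes with a window had a match, HLTF at -194. The AP-1 motif, spelled TGAGTCA and its reverse complement TGACTCA, was in 4.95% of all windows and in 0 of the 9 ATPase windows. It occurred in the windows of ZNHIT1 (at -89) and SMARCA2 (at 11). A match describes the letters of a window and is not evidence of binding. For each listed gene only 1 window was read, the first listed. The lists were chosen with earlier results of these data known, so these counts are no test of a motif. Whether a motif has a part in the changes was not tested.

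The DMSO libraries had HELLS at 15.6 and 18.0 CPM and the ACBI1 libraries at 50.8 and 53.7 CPM, from 1271 and 1297 counts and from 4550 and 3524 counts. Both ACBI1 libraries were far above both DMSO libraries. The mean rose from 16.8 ± 1.71 to 52.3 ± 2.07 CPM (SD, n = 2 each), a 3.11-fold rise (log2 change 1.64, SE 0.17, 95% interval 1.23 to 2.04), with an edgeR quasi-likelihood Benjamini-Hochberg adjusted p of 0.00425. Of the 19159 genes tested, 561 (2.93%) had a larger rise. HELLS was called without each library in turn, with log2 changes of 1.54 to 1.74.

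The partner list of HELLS held CDCA7 and its relative CDCA7L, zinc finger proteins of which CDCA7 brings HELLS to chromatin, together with UHRF1, which reads hemimethylated DNA after replication, and the DNA methyltransferases DNMT1 and DNMT3B. Of these 5, 3 rose, 0 fell and 2 were not called, with a median log2 change of 1.32. The shares over all tested genes were 6.75% called higher and 10.6% called lower. CDCA7L was at 20.5 and 17.7 CPM in DMSO and at 63.6 and 60.1 CPM in ACBI1 (log2 change 1.70, SE 0.16, edgeR adjusted p 0.00384). UHRF1 was at 43.5 and 46.3 CPM in DMSO and at 124 and 145 CPM in ACBI1 (log2 change 1.58, SE 0.17, edgeR adjusted p 0.00455). Both genes had their ACBI1 libraries close to each other and clear of DMSO, with log2 changes near the 1.64 of HELLS. DNMT1, which copies methylation onto new DNA strands, was at 172 and 134 CPM in DMSO and at 318 and 322 CPM in ACBI1 (log2 change 1.07, SE 0.19, edgeR adjusted p 0.0171). Without ACBI1 replicate 1 or 2 its adjusted p was 0.0589 or 0.0570. CDCA7 was at 22.6 and 11.5 CPM in DMSO and at 50.1 and 35.3 CPM in ACBI1, with an edgeR adjusted p of 0.0508. DNMT3B, which sets new methylation, was at 11.3 and 8.15 CPM in DMSO and at 13.5 and 12.8 CPM in ACBI1, with an edgeR adjusted p of 0.268. Neither had overlapping groups, and neither passed the test.

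INO80 slides nucleosomes and acts at promoters, replication forks and DNA breaks. Its gene lies at chr15:40978880-41116354 on the minus strand. INO80 was at 87.6 and 76.0 CPM in DMSO and at 130 and 144 CPM in ACBI1, and both ACBI1 libraries were above both DMSO libraries. The mean rose from 81.8 ± 8.19 to 137 ± 9.54 CPM (SD, n = 2 each; 1.68-fold, log2 change 0.75, SE 0.16, 95% interval 0.34 to 1.15, edgeR adjusted p 0.0310). The call was lost without DMSO replicate 2, ACBI1 replicate 1 or ACBI1 replicate 2 (adjusted p 0.101, 0.0966 and 0.146) and held without DMSO replicate 1. Of all tested genes, 14.1% had a larger rise.

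EP400 exchanges histones in the complex of the acetyltransferase TIP60. Its transcript was at 166 and 139 CPM in DMSO and at 228 and 231 CPM in ACBI1, again without overlap. The mean was 153 ± 19.2 CPM in DMSO and 229.6 ± 1.88 CPM in ACBI1, which gave a log2 change of 0.59 (SE 0.17, 95% interval 0.17 to 1.00) and an edgeR adjusted p of 0.0642. EP400 passed the threshold under 3 of 7 alternative settings of scaling, filter and tool, with adjusted p between 0.0279 and 0.0634.

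SRCAP, which loads H2A.Z in its own complex, had few counts, with 625 and 378 in DMSO and 633 and 569 in ACBI1. These came to 7.68 and 5.25 CPM in DMSO and 7.07 and 8.68 CPM in ACBI1, so the groups overlapped, and the log2 change of 0.28 (SE 0.29, 95% interval -0.43 to 1.00) had an edgeR adjusted p of 0.545. In GENCODE 29, SRCAP (chr16:30698209-30741409, plus strand) shares 76% of its exonic length and 93.8% of its coding length with other genes. The protein-coding gene ENSG00000282034, at chr16:30704067-30745169 on the same strand, covers 74.1% of the SRCAP exons and had 0 counts in all 4 libraries. Reads falling on several genes were listed apart from the gene counts, at 4.41% to 5.07% of the reads listed per library. With the 0 counts of ENSG00000282034, this probably leaves SRCAP mainly its unshared 3285 bases. The exact overlap mode is not given in the sources used here. The level of SRCAP is therefore uncertain, and per kilobase of all exons it is probably too low. Its log2 change rests on the same counts and may not hold for the whole transcript.

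The called subunits of the INO80 family complexes went in both directions. Over all tested genes, 6.75% were called higher and 10.6% lower. In the list of 11 subunits of the INO80 complex, 1 rose, 1 fell and 9 were not called (median log2 change 0.15). ACTR5, an actin-related protein, was at 10.9 and 11.6 CPM in DMSO and at 20.5 and 20.3 CPM in ACBI1 (log2 change 0.86, SE 0.19, edgeR adjusted p 0.0293). INO80C was at 13.8 and 18.5 CPM in DMSO and at 9.12 and 6.89 CPM in ACBI1 (log2 change -1.01, SE 0.26, edgeR adjusted p 0.0467). Of the 6 subunits shared by some or all of the INO80, SRCAP and EP400 complexes, 2 rose, 1 fell and 3 were not called. Their median log2 change was 0.55. YEATS4, a reader of acetylated histones also known as GAS41, was at 35.9 and 26.1 CPM in DMSO and at 67.6 and 55.1 CPM in ACBI1 (log2 change 0.98, SE 0.21, edgeR adjusted p 0.0301). RUVBL1, a ring-forming ATPase that helps assemble these complexes, was at 94.2 and 78.5 CPM in DMSO and at 141 and 138 CPM in ACBI1 (log2 change 0.69, SE 0.17, edgeR adjusted p 0.0393). The rises of YEATS4 and RUVBL1 were shared by both ACBI1 libraries. DMAP1, a subunit of the SRCAP and TIP60 complexes, was at 24.0 and 22.8 CPM in DMSO and at 15.3 and 12.6 CPM in ACBI1 (log2 change -0.74, SE 0.19, edgeR adjusted p 0.0461).

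Among the 4 genes for SRCAP subunits and H2A.Z, 0 were called in either direction by edgeR (at an unadjusted p under 0.05, 1 was higher and 2 lower, where 15.4% and 18.5% of all tested genes were). H2AZ1 was at 149 and 145 CPM in DMSO and at 199 and 216 CPM in ACBI1, and H2AZ2 was at 120 and 102 CPM in DMSO and at 85.0 and 83.5 CPM in ACBI1. These genes for the H2A.Z isoforms thus lay on opposite sides of their DMSO levels, with log2 changes of 0.49 and -0.40 and edgeR adjusted p of 0.0810 and 0.142. Of 11 subunits of the EP400-TIP60 complex, 0 rose, 1 fell and 10 were not called (median log2 change -0.03). The shares over all tested genes were 6.75% called higher and 10.6% called lower. The 1 that fell was MORF4L2, a subunit with an MRG domain, at 241 and 250.3 CPM in DMSO and 144 and 158 CPM in ACBI1 (log2 change -0.70, SE 0.16, edgeR adjusted p 0.0339).

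**Figure D2:**
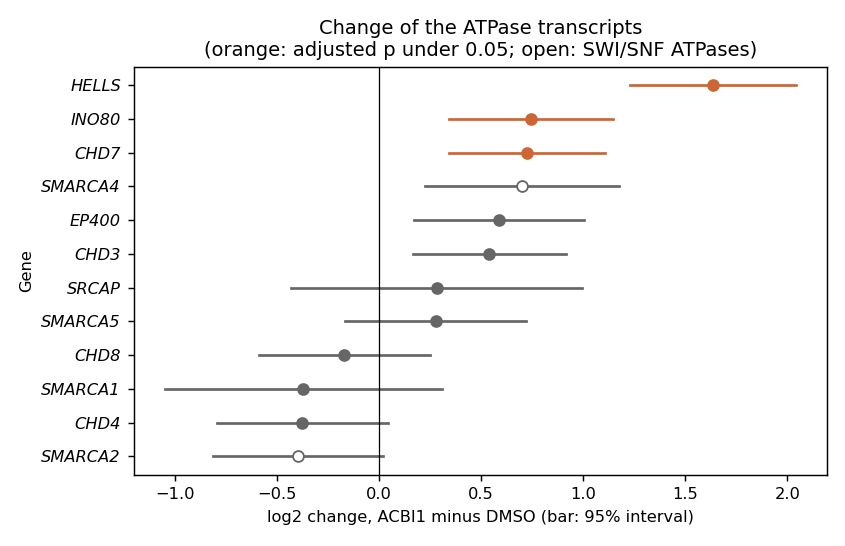
log2 change (ACBI1 minus DMSO) of each ATPase transcript with its 95% interval, orange where the edgeR adjusted p was under 0.05, with SMARCA4 and SMARCA2 as open symbols. The intervals of HELLS, INO80, CHD7, EP400 and CHD3 lie above 0, and those of CHD4, CHD8, SMARCA1, SMARCA5 and SRCAP span 0. These intervals are not adjusted for the number of genes tested, and EP400 and CHD3 were not called.

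CHD7 remodels enhancers and is known for the developmental disorder that follows loss of 1 copy. CHD7 was at 64.3 and 56.2 CPM in DMSO and at 96.9 and 102 CPM in ACBI1, with both ACBI1 libraries above both DMSO libraries. The mean rose from 60.3 ± 5.69 to 99.5 ± 3.67 CPM (SD, n = 2 each; 1.65-fold, log2 change 0.72, SE 0.16, 95% interval 0.34 to 1.11, edgeR adjusted p 0.0298). Of all tested genes, 14.6% had a larger rise. Without DMSO replicate 2, ACBI1 replicate 1 or ACBI1 replicate 2 the adjusted p was between 0.104 and 0.134, and without DMSO replicate 1 the call held.

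CHD8, the closest relative of CHD7 among the 10, is known as a partner of the WDR5, RBBP5 and ASH2L module of histone methyltransferases and of CTCF. It was at 130 and 154 CPM in DMSO and at 119 and 134 CPM in ACBI1, with overlapping groups. The log2 change was -0.17 (SE 0.17, 95% interval -0.59 to 0.25, edgeR adjusted p 0.540). Of its 4 partner genes, edgeR called 0 in either direction (at an unadjusted p under 0.05, 1 was higher and 0 lower, beside the same 15.4% and 18.5%). WDR5 came nearest, at 75.9 and 56.1 CPM in DMSO and 106 and 111 CPM in ACBI1, with an edgeR adjusted p of 0.0520, and is named here after its values were seen.

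CHD3 and CHD4 are alternative motors of NuRD, which joins remodelling to histone deacetylation. CHD3, at chr17:7884806-7912760 on the plus strand, was at 149 and 148 CPM in DMSO and at 214 and 219 CPM in ACBI1. The libraries of each group lay close together and the groups did not overlap. The log2 change was 0.54 (SE 0.15, 95% interval 0.17 to 0.92), yet the edgeR adjusted p was 0.0607, and CHD3 passed the threshold under 3 of 7 alternative settings (0.0255 to 0.0618). CHD4 was at 22.0 and 23.8 CPM in DMSO and at 17.8 and 17.6 CPM in ACBI1, with a log2 change of -0.37 (SE 0.17, 95% interval -0.79 to 0.04, edgeR adjusted p 0.184). CHD4 did not pass the test, although its groups did not overlap.

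The level and the log2 change of CHD4 have the same limit as those of SRCAP. In GENCODE 29, CHD4 (chr12:6570082-6614524, minus strand) shares 53.5% of its exonic and 94.4% of its coding length with other genes. The protein-coding read-through gene ENSG00000285238, at chr12:6556886-6607367 on the same strand, covers 46.9% of the CHD4 exons and had 0 counts in all 4 libraries. An antisense gene, ENSG00000247853, covers 10.2% of these exons and had 47 to 86 counts per library. Of 18319 tested genes with a gene model, 891 (4.86%) share at least 50% of their exonic length. Among the 10 ATPases and their partner genes these were CHD4, SRCAP, C17orf49, INO80B and RAD54B. Between 0% and 13.5% of the exonic length was shared in the other 8 ATPases.

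In the list of 12 further NuRD subunits, 1 rose, 0 fell and 11 were not called, with a median log2 change of 0.12. The shares over all tested genes were 6.75% called higher and 10.6% called lower. GATAD2A, a scaffold that links the deacetylase and remodeller modules of the complex, was at 225 and 178 CPM in DMSO and at 340 and 374 CPM in ACBI1 (log2 change 0.82, SE 0.19, edgeR adjusted p 0.0344). The deacetylases HDAC1 and HDAC2 had log2 changes of -0.00385 and 0.33, neither of them called. Of 6 other CHD ATPases, 0 rose and 1 fell, beside the same shares of all tested genes. CHD6 was at 62.3 and 84.3 CPM in DMSO and at 40.2 and 44.8 CPM in ACBI1 (log2 change -0.78, SE 0.20, edgeR adjusted p 0.0433). The call of CHD6 was lost when libraries were scaled by size alone (adjusted p 0.0572).

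SMARCA5, also called SNF2H, is the main ISWI motor of most human cells and spaces nucleosomes in several complexes. It was at 249 and 207 CPM in DMSO and at 295 and 258 CPM in ACBI1, where the lower ACBI1 library was just above the higher DMSO library. Its log2 change was 0.28 (SE 0.18, 95% interval -0.17 to 0.72, edgeR adjusted p 0.334). SMARCA1, or SNF2L, was at 46.0 and 81.4 CPM in DMSO and at 46.6 and 52.0 CPM in ACBI1. DMSO replicate 2 was thus far above the other 3 libraries, which lay within 46.0 to 52.0 CPM. The log2 change of -0.37 (SE 0.28, 95% interval -1.05 to 0.31, edgeR adjusted p 0.401) rested on that library: it was 0.10 (adjusted p 0.859) without DMSO replicate 2 and -0.72 (adjusted p 0.0334) without DMSO replicate 1.

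Of 11 genes for ISWI partner subunits, which direct the motor to its sites, 10 could be tested. Of these, 0 rose, 1 fell and 9 were not called (median log2 change 0.07), beside 6.75% higher and 10.6% lower of all tested genes. RSF1, the partner of SMARCA5 in the RSF complex, was at 76.9 and 83.0 CPM in DMSO and at 53.6 and 53.0 CPM in ACBI1 (log2 change -0.59, SE 0.15, edgeR adjusted p 0.0448). The call of RSF1 was lost with library size scaling (adjusted p 0.0657). CECR2 could not be tested, with 0 counts in both DMSO libraries and 1 count in each ACBI1 library.

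**Figure D3:**
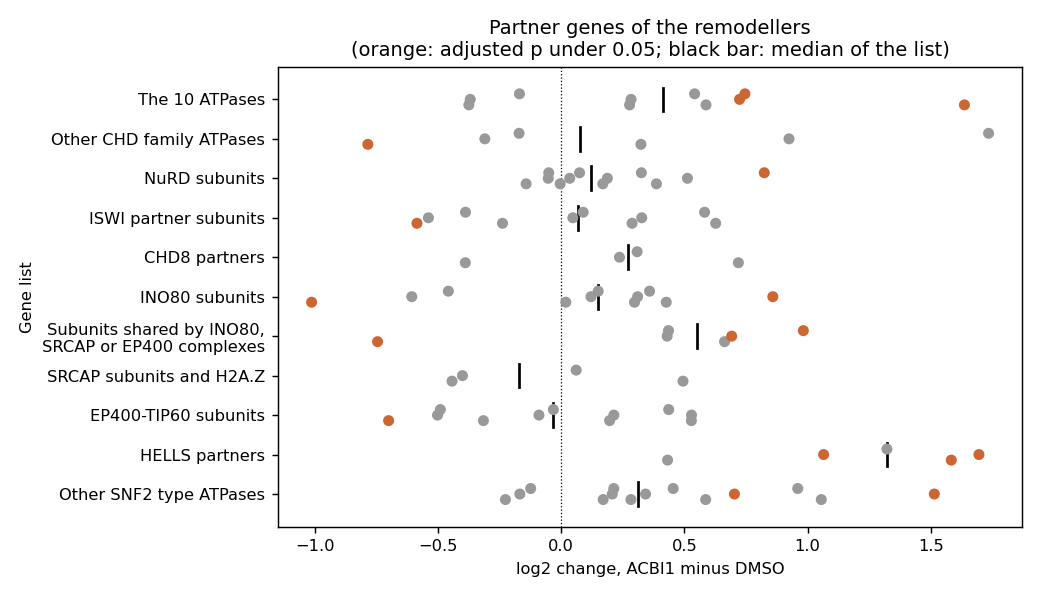
log2 change (ACBI1 minus DMSO) of every tested gene in the 10 lists of partner and related genes and in the 10 ATPases, with orange points for an edgeR adjusted p under 0.05 and a black bar at the median of each list. The list of HELLS partners has its median at 1.32, and the other partner lists have medians between -0.17 and 0.55.

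Over all 10 partner and relative lists, 83 of 84 genes were tested, of which 9 rose, 5 fell and 69 were not called. Of all tested genes, 17.4% were called, 6.75% higher and 10.6% lower, so calls in these lists are not a result about the lists. The median log2 change over the 83 genes was 0.21. Of the 14 called genes, CDCA7L, UHRF1 and RAD54L were called without each library in turn, and the other 11 lost the call without at least 1 library. RSF1, ACTR5, DMAP1 and HLTF lost it whichever library was left out. With scaling by library size alone, 4 of the 14 lost the call, CHD6, RSF1, INO80C and DMAP1, all of them lower genes. DMAP1 also lost it with offsets for GC content and length (adjusted p 0.0618).

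Among 14 other SNF2 type ATPases, which include DNA repair and transcription factors, 2 rose, 0 fell and 12 were not called. Their median log2 change was 0.31, and 6.75% of all tested genes were called higher and 10.6% lower. RAD54L, which remodels DNA during homologous recombination, was at 15.2 and 9.05 CPM in DMSO and at 33.7 and 35.8 CPM in ACBI1 (log2 change 1.51, SE 0.27, edgeR adjusted p 0.0181). In GENCODE 29, LRRC41 on the other strand covers 25.1% of the RAD54L exons, and LRRC41 had fewer counts in both ACBI1 libraries (7131 and 5197) than in DMSO replicates 1 and 2 (8346 and 7379). HLTF, a fork-remodelling ATPase and ubiquitin ligase, was at 116 and 118 CPM in DMSO and at 186 and 194 CPM in ACBI1 (log2 change 0.70, SE 0.15, edgeR adjusted p 0.0300). ATRX, which loads histone H3.3 at repeats, was not called, at 108 and 131 CPM in DMSO and 98.6 and 114 CPM in ACBI1.

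Transcripts of the 2 SWI/SNF motors that ACBI1 is directed at did not pass the threshold, SMARCA4 by a small margin. SMARCA4 was at 284 and 216 CPM in DMSO and at 414 and 398 CPM in ACBI1 (edgeR adjusted p 0.0583), and SMARCA2 was at 22.8 and 24.4 CPM in DMSO and at 17.5 and 18.4 CPM in ACBI1 (edgeR adjusted p 0.163). SMARCA4 was called higher under 5 of 7 alternative settings (adjusted p 0.00834 to 0.0567), and SMARCA2 under 0 of 7. A transcript level does not check the degradation of a protein. The log2 change of SMARCA4, 0.70, lay close to those of INO80 (0.75) and CHD7 (0.72).

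Levels of different genes can be compared only per length, and are given here as CPM per kilobase of exon (GENCODE 29). In DMSO, SMARCA5 stood highest of the 10 at 27.2 ± 3.54 CPM per kilobase, followed by CHD3 at 15.2 ± 0.0941, SMARCA1 at 14.6 ± 5.74, INO80 at 11.7 ± 1.17, EP400 at 8.17 ± 1.03, CHD8 at 6.79 ± 0.821, CHD7 at 3.55 ± 0.335, CHD4 at 1.80 ± 0.0988, HELLS at 1.66 ± 0.169 and SRCAP at 0.473 ± 0.125 (SD, n = 2 each). The neighbours CHD3 and SMARCA1, SMARCA1 and INO80, and CHD4 and HELLS had overlapping libraries, so their order is not resolved. For CHD4 and SRCAP, reads on shared exons were probably set aside. Their levels per kilobase of all exons or of the longest transcript, and sums that include them, are therefore probably understated in both groups. On the same scale SMARCA4 was at 15.8 in DMSO, but at 43.1 per kilobase of the longest transcript, where CHD3 was at 20.2 and SMARCA5 at 28.8, so its place among the 10 depends on the length used.

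In ACBI1 the order per kilobase was SMARCA5 (33.0 ± 3.09), CHD3 (22.2 ± 0.336), INO80 (19.6 ± 1.36), EP400 (12.3 ± 0.101), SMARCA1 (11.3 ± 0.887), CHD8 (6.04 ± 0.501), CHD7 (5.86 ± 0.216), HELLS (5.15 ± 0.204), CHD4 (1.39 ± 0.0115) and SRCAP (0.576 ± 0.0831). Only CHD8 and CHD7 overlapped among neighbours. The levels per kilobase of the 10 summed to 90.7 and 91.5 in the DMSO libraries and to 117 and 118 in the ACBI1 libraries. SMARCA5 made up 29.9% of that sum in DMSO and 28.1% in ACBI1, and HELLS 1.82% and 4.39%. With lengths limited to exons that no other gene shares, an alternative added after the data were seen, CHD4 stood at 3.87 CPM per kilobase in DMSO and 2.98 in ACBI1 and SRCAP at 1.97 and 2.40, beside HELLS at 1.73 in DMSO, where the libraries of HELLS and SRCAP overlapped. Per kilobase of the longest transcript, CHD8 stood at 16.8 in DMSO, between CHD3 and SMARCA1 by mean with libraries that overlapped those of SMARCA1, and HELLS stood at 10.5 in ACBI1, above both libraries of CHD7 (8.38 and 8.83). The share of HELLS in the sum was then 2.86% in DMSO and 6.88% in ACBI1. The order thus depends on the length used. Leaving CHD4 and SRCAP aside, SMARCA5 and CHD3 were the highest 2 by mean in both groups under all 3 lengths. CHD4 and SRCAP cannot be placed under any of these lengths. Of their coding length, 94.4% and 93.8% is shared, so the unshared exons hold little of it and do not correct their levels.

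**Figure D4:**
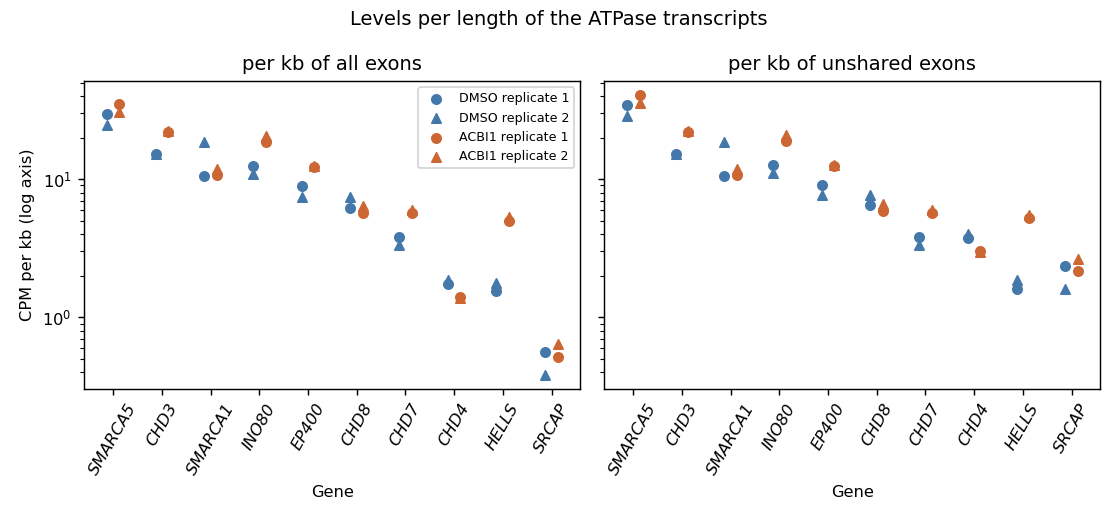
Level of each ATPase transcript per kilobase of exon on a log axis, in DMSO and ACBI1 libraries, with genes in the order of their DMSO mean and a panel for each way of taking the length. With all exons SMARCA5 is highest at 27.2 CPM per kilobase in DMSO and SRCAP lowest at 0.473. The second panel divides the same CPM by the length of unshared exons, with no recount of reads, which raises the values of CHD4 and SRCAP.

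A ratio of counts between related ATPases within a library does not depend on the scaling between libraries. CHD3 had 6.78 and 6.22 times the counts of CHD4 in the DMSO libraries and 12.1 and 12.5 times in the ACBI1 libraries, a log2 difference of 0.92. Both ACBI1 ratios were higher, and an exact two-sided permutation test gave p = 0.333, the smallest value that 2 against 2 libraries allow. Because reads on several genes were listed apart, the counts of CHD4 probably come mainly from its unshared exons. The size of this ratio therefore says little about the proportion of the transcripts, and its log2 difference may not hold for the whole CHD4 transcript. CHD7 had 0.494 and 0.364 times the counts of CHD8 in DMSO and 0.814 and 0.762 times in ACBI1, a log2 difference of 0.89 with no overlap (exact permutation p = 0.333). SMARCA1 had 0.185 and 0.393 times the counts of SMARCA5 in DMSO and 0.158 and 0.202 times in ACBI1, and these groups overlapped (log2 difference -0.59, exact permutation p = 0.667). Without each library in turn, the log2 difference ranged from 0.85 to 0.98 for CHD3 to CHD4, from 0.67 to 1.11 for CHD7 to CHD8 and from -1.14 to -0.05 for SMARCA1 to SMARCA5.

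**Figure D5:**
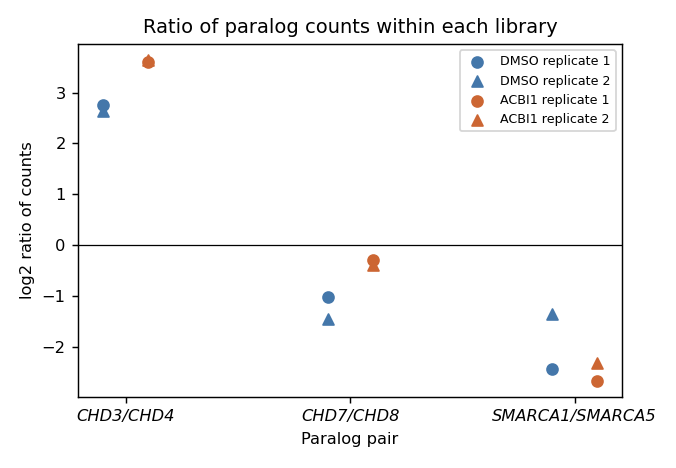
log2 ratio of counts between paralogs within each library, for 2 DMSO and 2 ACBI1 libraries. The ACBI1 points lie above the DMSO points for CHD3/CHD4 and CHD7/CHD8 and overlap them for SMARCA1/SMARCA5, where ACBI1 replicate 1 is the lowest of the 4.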

How the data were processed

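Counts of reads per gene in the 4 libraries, whole numbers that are not normalized, were used as deposited. TopHat2 2.1.1, HTSeq 0.11.0 and the build hg38 are named in the submitters' processing notes. The annotation, the strand setting and the overlap mode are not given in the sources used here, so reads of antisense and overlapping genes cannot be told apart. Libraries were made from total RNA with a kit for DNA libraries, per the labels' protocols. Between 84.6% and 86.1% of the reads listed were in genes and 4.41% to 5.07% fell on several genes, and lines for such reads were kept out of library sizes. A count of 0 allows up to 3 counts, or 0.0349 to 0.0467 CPM, for counting error only.

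Genes passed edgeR's filterByExpr (minimum count 10, minimum total 15). After TMM scaling, treatment was tested two-sided with glmQLFit and glmQLFTest of edgeR 4.0.16 (R 4.3.3), with Benjamini-Hochberg adjustment at 0.05. The fit had a common biological coefficient of variation of 0.244. Intervals of 95% are the log2 change with its SE and the t distribution of the fit, not adjusted for the number of genes tested. All 61228 features were found in the gene name table, and 56945 matched a GENCODE 29 gene by identifier, which gave coordinates, exon lengths and exon sharing. The scripts were tested on simulated data.

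The text names all 10 ATPases, the targets of ACBI1 and at most 3 called genes with the largest change in each partner list. Further genes are named as examples of members that were not called. The ATPases and lists were chosen with earlier results of these data known. Alternatives were DESeq2 size factors, library size only, a filter at a mean of 5 CPM, a filter that keeps each gene with any count, DESeq2 1.42.0, limma-voom (limma 3.58.1), offsets for GC content and length (lowess span 0.3), the replicate number as a block, a threshold of 0.01, each library left out, and other gene lengths. Protein sequences and the promoter window of CHD7 were not used here.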

Additional observations from a re-analysis of the deposited data

How the results depend on the processing

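HELLS was called higher under all 7 alternatives of scaling, filter and tool (adjusted p 5.17e-12 to 0.00498), and CHD7 and INO80 were called under the same 7 (0.00402 to 0.0300 and 0.00364 to 0.0306). At a threshold of 0.01, 1 ATPase was higher, HELLS, and the partner lists had 2 genes higher and 0 lower. Of all genes, 783 were then called, 172 higher and 611 lower. The number of ATPases called higher was 5 with library size only and 5 with DESeq2, where CHD3 and EP400 were added and 1907 of all genes were called higher and 2604 lower, and 1 to 3 with 1 library left out. ATPases called lower numbered 0 to 1 with 1 library left out, the 1 being SMARCA1 without DMSO replicate 1. The direction reversed for SMARCA1 and PBRM1 with 1 library left out, where log2 changes ranged from -0.72 to 0.10 for SMARCA1 and from -0.041 to 0.25 for PBRM1, and the reversal came without DMSO replicate 2. Called genes in all numbered 5518 with every gene that had a count and 1379 to 4292 with 1 library left out, a fit in which the lone library is assumed to vary like the other group. Partner genes called higher numbered 16 with library size only, 16 with every gene that had a count, 17 with DESeq2 and 3 to 12 with 1 library left out. Partner genes called lower numbered 1 with library size only and 0 to 3 with 1 library left out. Over all genes, the fit on every gene that had a count called 2202 higher and 3316 lower. With the replicate number as a block there were 7909 called genes (41.3% of those tested), 3708 higher and 4201 lower. Beside these stood 5 ATPases higher, 28 partner genes higher and 14 lower. The block together with GC and length offsets gave 7798 called genes (40.7%), 3699 higher and 4099 lower. There, 5 ATPases were higher, 30 partner genes higher and 13 lower. With the block SMARCA4 was called higher (adjusted p 0.00248) and SMARCA2 lower (0.0394). Deviations of same-numbered libraries correlated at 0.44, but the labels do not say what a number marks, so the pairing is not established. Levels per length moved by more than the spread between libraries for 14 of 20 values with the longest transcript and for 8 of 20 with unshared exons. The cause of these differences was not tested. The number of libraries, 2 per group, limits precision, and for SRCAP and CHD4 the count of usable reads does too.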
